A study of Homo sapiens with 6 samples.

Results

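The enzymes that modify and cross-link collagen were followed in breast cancer cells with less CCN3. They are the lysyl oxidases LOX, LOXL1, LOXL2, LOXL3 and LOXL4, the lysyl hydroxylases PLOD1, PLOD2 and PLOD3, and the prolyl 4-hydroxylase alpha subunits P4HA1 and P4HA2. These 10 genes were picked by symbol, for what their products do, from the 46427 genes of the count table, and each symbol had 1 row. Hs578T is a human breast carcinoma line of the triple-negative class, which lacks the estrogen, progesterone and HER2 receptors. CCN3 is a secreted matricellular protein of the CCN family. RNA was sequenced from 3 samples of Hs578T cells with a control shRNA (shCTRL) and 3 samples with a CCN3 shRNA (shCCN3). Both groups carried a retroviral pSUPER vector with puromycin selection and grew in DMEM with serum. The cells were stably transduced, and the paper names only shRNA #2 for the CCN3 side of the RNA sequencing. The effect of CCN3 loss, of this shRNA sequence and of the selection of the cells therefore cannot be told apart. The samples are described as biological replicates, and no source used here says whether they came from separately transduced cells.

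Collagen chains are hydroxylated on proline and lysine while they are made in the endoplasmic reticulum. Prolyl 4-hydroxylases, tetramers of alpha subunits and the P4HB protein, make the hydroxyproline that keeps the triple helix stable at body temperature. Lysyl hydroxylases make hydroxylysine, which carries sugars and sets the kind of cross-link. Both use oxygen, iron, 2-oxoglutarate and ascorbate. Lysyl oxidases are copper enzymes that act outside the cell, where they oxidise lysine and hydroxylysine so that collagen and elastin fibres become cross-linked. In breast tumours this cross-linking is known for stiffening the matrix.

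The libraries held between 56159110 and 68393177 counts, and 3 counts corresponded to 0.0435 to 0.054 CPM, the unit of all levels here, which scales a gene's counts to the size of its library with TMM factors. CCN3 had 103, 102 and 98.1 CPM in the shCTRL and 47.4, 47.2 and 46.5 CPM in the shCCN3 libraries, a log2 fold change of -1.10. Of 17419 genes tested with edgeR's quasi-likelihood test, 33.4% had an adjusted p under 0.05, 16.2% higher and 17.3% lower in shCCN3 cells. The shCCN3 replicate 2 library stood apart from the others of its group, with a chi-square per degree of freedom of 37.6 and 46 against them and 9.90 between the other 2. Without it 7229 genes were called instead of 5825. Among the shCTRL libraries the chi-square per degree of freedom was 22.3 between replicates 1 and 3, beside 7.13 and 12 for the other pairs. The mesenchymal markers were abundant, with summed levels of 11100 CPM in shCTRL and 10700 to 10800 CPM in shCCN3 libraries, and 1 of the 5 was called (higher). Of the 6 epithelial markers EPCAM, CDH1, KRT19 and CLDN4 stayed under 1 CPM. The epithelial sum was 174 to 193 CPM in shCTRL and 226 to 278 CPM in shCCN3 libraries, most of it KRT18, which rose from 163 to 232 CPM, while KRT8 fell (17.7 to 21.3 CPM in shCTRL, 13.5 to 14.7 CPM in shCCN3 libraries) and so did CLDN4, from 0.754 to 0.147 CPM. ESR1 was under 1 CPM, whereas PGR mRNA was 2.86 and ERBB2 mRNA 77.9 CPM in shCTRL cells, beside 3.80 and 78.2 CPM in shCCN3 cells, and neither was called. The 4 endothelial markers summed to 3.90 to 5.41 CPM in shCTRL and 3.56 to 4.43 CPM in shCCN3 libraries, with CDH5 at 0 throughout and none called. CD3E, a T cell marker, was at 0 in every library. The summed hematopoietic list had 95.6 to 108 CPM in shCTRL and 58.4 to 60.2 CPM in shCCN3 libraries, nearly all of it CD68. The part of these marker differences in the results was not tested.

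After CCN3 knockdown some of these enzymes rose and others fell. Among the lysyl hydroxylases PLOD2 rose 1.89-fold, PLOD3 fell to 61.4% of its shCTRL level, and PLOD1 had a log2 fold change of 0.01. Among the lysyl oxidases LOXL1 fell to 72.8% and LOX rose to 124%. P4HA1 rose to 115%. LOXL2, LOXL3, PLOD1 and P4HA2 did not pass the test, and LOXL4 had too few counts to be tested. In these bulk libraries a change in the share of cells of some kind and a change in RNA per cell cannot be told apart.

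In numbers, 9 of the 10 genes passed the filter on low counts and 5 of those 9 were called at an adjusted p under 0.05, beside 33.4% of all genes tested. Of the 5, 3 were higher in shCCN3 cells and 2 were lower, beside 16.2% and 17.3% of all genes tested. The shCTRL and shCCN3 libraries did not overlap for 6 of the 9 genes, beside 46.3% of all genes tested (22.7% higher and 23.6% lower in shCCN3 cells). The median log2 fold change of the 9 genes was 0.08, beside 0.008 over all genes tested. The calls of PLOD2, PLOD3 and LOXL1 held in each of the 6 fits with 1 library left out, and those of LOX and P4HA1 did not. Of the 10 genes, 3 were called without shCTRL replicate 2, without shCTRL replicate 3, without shCCN3 replicate 1 or without shCCN3 replicate 3, and 6 without shCCN3 replicate 2. Over all genes tested, the number called also moved, from 5825 with all libraries to 4181, 4683, 4484 and 4800, in the same order. Without shCCN3 replicate 2 it was 7229. With 3 libraries against 3, an exact permutation test of a single gene (two-sided) cannot go below p = 0.1, so the calls rest on the spread that edgeR estimated over all genes.

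**Figure D1:**
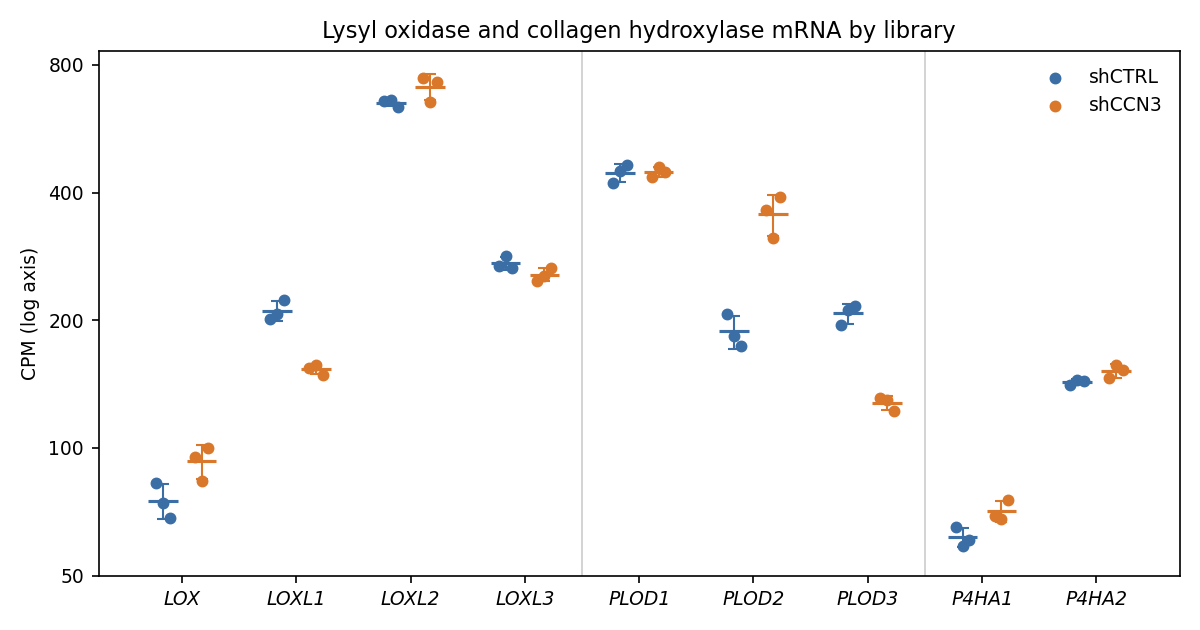
Level of each of the 9 tested genes in CPM (vertical axis, log scale) in the 3 shCTRL and the 3 shCCN3 libraries. Points are replicates, and the line and bar are the mean and SD of each group. LOXL4 is not drawn. The PLOD2 points of shCCN3 cells, at 313 to 390 CPM, all lie above the shCTRL points, at 174 to 207 CPM, and the PLOD3 points lie the other way round.

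PLOD2 makes the telopeptide lysyl hydroxylase, which acts on the ends of the collagen chain and so favours the hydroxylysine type of cross-link. The gene lies on chromosome 3 from 146069440 to 146163653 on the minus strand (GRCh38, GENCODE release 29). Its level was 207, 184 and 174 CPM in shCTRL replicates 1 to 3 and 363, 313 and 390 CPM in shCCN3 replicates 1 to 3. Every shCCN3 library was above every shCTRL library, and the lowest shCCN3 library was the replicate 2 that stood apart. PLOD2 rose by 0.92 on the log2 scale (standard error 0.094, 95% interval 0.70 to 1.13, edgeR quasi-likelihood adjusted p = 8.88e-05), and by 1.00 without shCCN3 replicate 2. Of all genes tested, 11.3% had a larger absolute log2 fold change.

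PLOD3 makes a lysyl hydroxylase that also transfers galactose and glucose to hydroxylysine. It lies on chromosome 7 from 101205977 to 101218420, on the minus strand. The shCTRL libraries had 195, 212 and 216 CPM and the shCCN3 libraries 131, 130 and 122 CPM. The groups were well separated, and shCCN3 replicate 2 lay within its group. PLOD3 fell by 0.70 on the log2 scale (standard error 0.063, 95% interval -0.85 to -0.56, edgeR quasi-likelihood adjusted p = 3.91e-05).

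PLOD1, the lysyl hydroxylase that acts mainly within the triple helix, lies on chromosome 1 from 11934205 to 11975538. It had 422, 450 and 464 CPM in shCTRL and 436, 460 and 448 CPM in shCCN3 libraries. The groups overlapped throughout. The 95% interval of its log2 fold change ran from -0.12 to 0.14 (edgeR quasi-likelihood adjusted p = 0.922). Its sign depended on the libraries used, with -0.03 without shCTRL replicate 1 and -0.006 without shCCN3 replicate 2.

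LOXL1 makes a lysyl oxidase known for its part in elastic fibres. The gene lies on chromosome 15 from 73925989 to 73952137, on the plus strand. It had 201, 207 and 223 CPM in shCTRL and 154, 157 and 149 CPM in shCCN3 libraries. All 3 shCCN3 libraries lay below all 3 shCTRL libraries, with a spread of 3.70 CPM (SD, n = 3) around 153 CPM. LOXL1 fell by 0.46 on the log2 scale (standard error 0.060, 95% interval -0.59 to -0.32, edgeR quasi-likelihood adjusted p = 0.000404).

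LOX, the founding lysyl oxidase, cross-links fibrillar collagen and elastin, and its propeptide is cut off outside the cell. It lies on chromosome 5 from 122063195 to 122078360, on the minus strand. Its levels were 82.9, 74.1 and 68.5 CPM in shCTRL and 95.4, 83.5 and 100 CPM in shCCN3 libraries. The groups did not overlap, but shCTRL replicate 1 and shCCN3 replicate 2 were close. The log2 fold change was 0.31 (standard error 0.090, 95% interval 0.10 to 0.51, edgeR quasi-likelihood adjusted p = 0.0275). LOX was not called in 4 of the 6 fits with a library left out. Its adjusted p from edgeR was 0.0995 without shCTRL replicate 2, 0.0972 without shCTRL replicate 3, 0.0901 without shCCN3 replicate 1 and 0.0963 without shCCN3 replicate 3.

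LOXL2 makes a lysyl oxidase that also acts on basement membrane collagen and is often studied in breast cancer, and it lies on chromosome 8. It had 656, 660 and 637 CPM in shCTRL and 746, 653 and 731 CPM in shCCN3 libraries. Of the shCCN3 libraries, replicates 1 and 3 were above the shCTRL range and replicate 2 was within it. The log2 fold change was 0.13 (95% interval -0.02 to 0.27, edgeR quasi-likelihood adjusted p = 0.166). Without shCCN3 replicate 2 it was 0.19 (edgeR adjusted p = 0.00999), so that the call for LOXL2 depended on that library.

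LOXL3 makes a lysyl oxidase with scavenger receptor domains, as LOXL2 and LOXL4 do, and lies on chromosome 2 from 74532414 to 74555690. Its levels were 268, 284 and 266 CPM in shCTRL and 248, 255 and 266 CPM in shCCN3 libraries. The groups met at their edges, and the log2 fold change was -0.09 (95% interval -0.22 to 0.04, edgeR quasi-likelihood adjusted p = 0.277). LOXL4, on chromosome 10 from 98247690 to 98268250, had 0 counts in 5 libraries and 3 counts in shCCN3 replicate 1. Both groups were thus at or below a floor of 3 counts per library, and no fold is given.

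P4HA1 makes the alpha subunit of the type I prolyl 4-hydroxylase, the catalytic chain of the most widespread form of the enzyme. It lies on chromosome 10 from 73007217 to 73096974, on the minus strand. Its levels were 65.2, 58.8 and 60.8 CPM in shCTRL and 69.0, 68.1 and 75.6 CPM in shCCN3 libraries. The groups did not overlap, though the gap between them was narrow. The log2 fold change was 0.20 (standard error 0.069, 95% interval 0.05 to 0.36, edgeR quasi-likelihood adjusted p = 0.0476). This call, close to the threshold, was lost in 4 of the 6 fits with a library left out. The adjusted p from edgeR was then 0.188 without shCTRL replicate 2, 0.124 without shCTRL replicate 3, 0.0891 without shCCN3 replicate 1 and 0.164 without shCCN3 replicate 3. It was also lost without a filter on low counts, with limma-voom and with a replicate block.

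P4HA2 makes the alpha subunit of the type II enzyme and lies on chromosome 5 from 132191838 to 132295315. It had 141, 145 and 144 CPM in shCTRL and 146, 157 and 153 CPM in shCCN3 libraries. The groups just failed to overlap. The log2 fold change of 0.08 (95% interval -0.04 to 0.21, edgeR quasi-likelihood adjusted p = 0.299) did not pass the threshold.

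**Figure D2:**
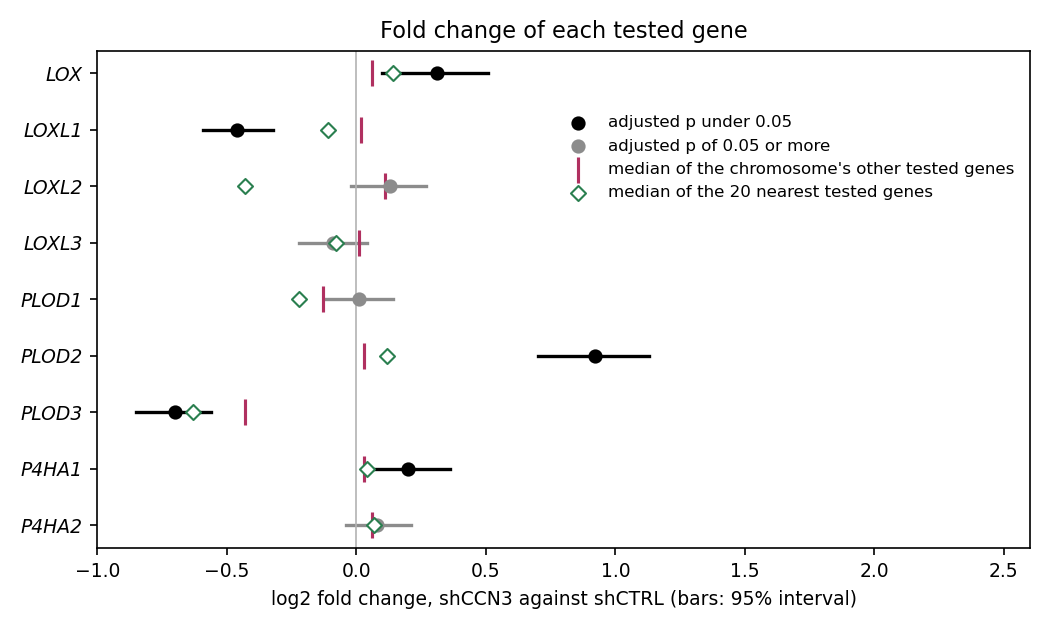
Log2 fold change of the 9 tested genes (points, black where the adjusted p from edgeR was under 0.05 and grey otherwise) with its 95% interval (bars), beside the median of the other tested genes of the same chromosome (red ticks) and of the 20 nearest tested genes (open diamonds). PLOD2 at 0.92 stands far from both medians, whereas PLOD3 at -0.70 stands near the median of its neighbours at -0.63.

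To compare genes with each other, CPM was divided by the length of the exons in kb, since longer transcripts collect more counts. On this scale of level per length, LOXL2 was the highest of the 10 genes in shCTRL cells with 183 ± 3.58 CPM per kb (SD, n = 3), and PLOD1 followed with 151 ± 7.25 CPM per kb. LOXL1 (89.5 CPM per kb), PLOD3 (71.2), LOXL3 (66.2), PLOD2 (42.4), P4HA2 (38.6), P4HA1 (21.1) and LOX (14.5) came next, and LOXL4 was at 0. The ranges of PLOD3 and LOXL3 overlapped, although PLOD3 was the higher within each shCTRL library. With the length of the longest coding transcript LOXL3 was the higher, at 77.9 against 71.2 CPM per kb. Their order thus depends on the lengths used. In shCCN3 cells PLOD2, with 80.0 ± 8.80 CPM per kb (SD, n = 3), stood in the third place behind LOXL2 with 200 and PLOD1 with 152. LOXL1 and LOXL3 overlapped there, with means of 65.2 and 62.2 CPM per kb. The ranges of PLOD3 and P4HA2 overlapped as well, with means of 43.7 and 40.9 CPM per kb, although PLOD3 was the higher within each shCCN3 library. With the longest coding transcript the mean of P4HA2 was the higher, at 45.3 against 43.7 CPM per kb.

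The makeup of each family followed from these levels. PLOD2 was 16.0% ± 1.91 (SD, n = 3) of the lysyl hydroxylase mRNA in shCTRL cells and 28.9% ± 2.67 in shCCN3 cells, as shares of the summed CPM per kb. PLOD3 went the other way, with 26.8% ± 0.772 and 15.8% ± 0.871. PLOD1 was the main lysyl hydroxylase mRNA in both groups, with 57.1% and 55.2% and overlapping libraries. Within each library, the ratio of PLOD2 to PLOD3 per length was 0.70, 0.568 and 0.53 in shCTRL and 1.82, 1.59 and 2.1 in shCCN3. PLOD3 was thus the more abundant of the pair in every shCTRL library and PLOD2 in every shCCN3 library. The sum of the family was 265 ± 7.38 and 276 ± 5.48 CPM per kb (SD, n = 3 each), a smaller difference than those of PLOD2 and PLOD3.

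Among the lysyl oxidases, the share of LOXL2 was 51.9% ± 0.838 in shCTRL and 57.9% ± 1.70 in shCCN3 cells (SD, n = 3 each), and that of LOXL1 was 25.3% ± 1.43 and 18.9% ± 1.22. LOXL3 held 18.7% and 18%, with overlap. LOX was the smallest measured share, at 4.10% ± 0.406 and 5.19% ± 0.278. The ratio of LOXL2 to LOXL1 per length was 2.06 ± 0.144 in shCTRL and 3.07 ± 0.271 in shCCN3 cells, and the ratio of LOX to LOXL1 was 0.163 ± 0.0237 and 0.276 ± 0.0315 (SD, n = 3 each). Neither ratio overlapped between the groups. The summed lysyl oxidase level was 354 ± 3.22 and 345 ± 14.5 CPM per kb, with overlapping libraries. P4HA2 made up 64.7% ± 1.53 of the 2 prolyl 4-hydroxylase alpha subunits in shCTRL and 62.8% ± 1.55 in shCCN3 cells, also with overlap. The sum of these 2 genes was 59.7 ± 0.577 and 65.1 ± 2.02 CPM per kb (SD, n = 3 each), without overlap. These shares depend on the lengths used. With the longest coding transcript in place of all exons, PLOD2 had 18.5% and 32.6% of its family, and LOXL2 had 50.2% and 56.1%.

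**Figure D3:**
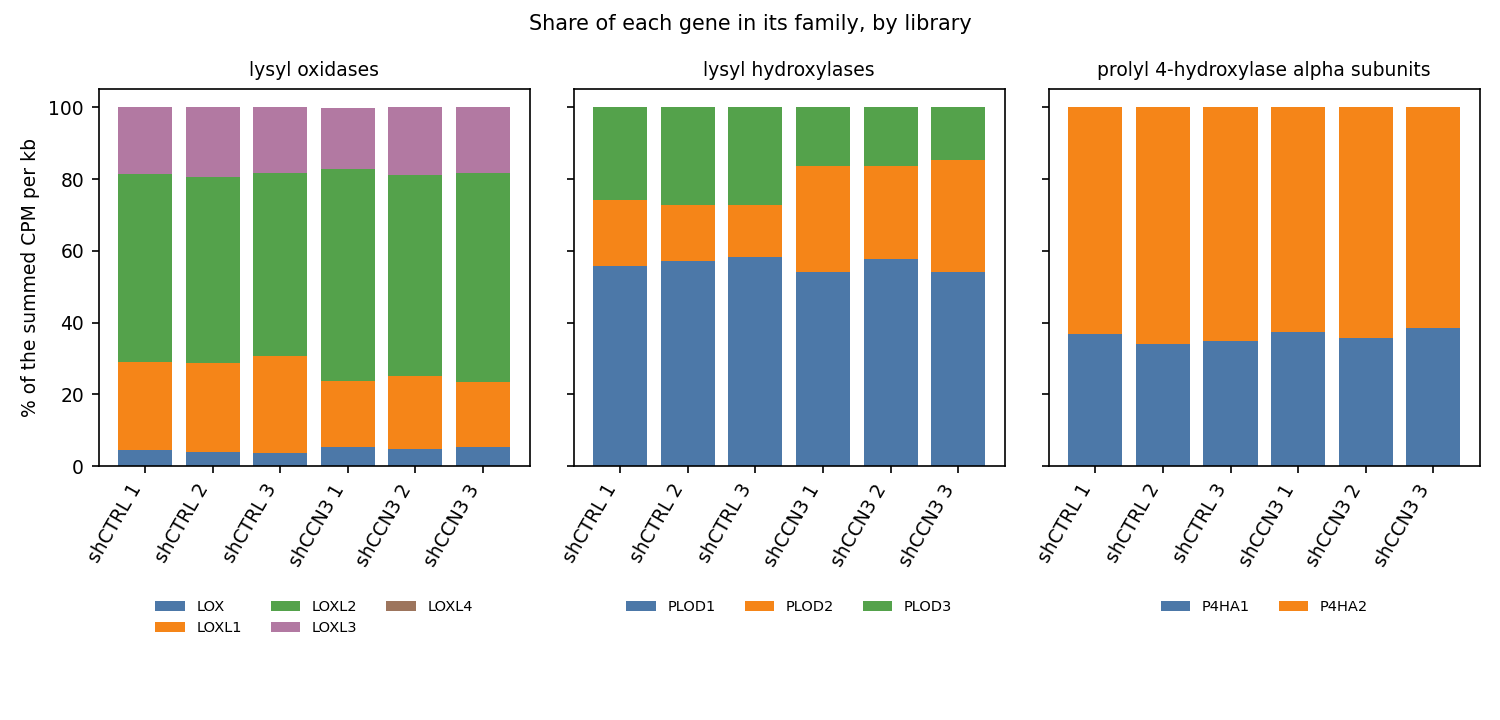
Share of each gene in the summed CPM per kb of its family (vertical axis, %), for each of the 6 libraries (bars). The PLOD2 part of the lysyl hydroxylases is 14.5% to 18.2% in shCTRL and 26% to 31.2% in shCCN3 libraries, while the split between P4HA1 and P4HA2 overlaps.

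The value of PLOD3 was set beside those of other genes on its chromosome. The median log2 fold change was -0.43 over the 820 other tested genes of chromosome 7, and 21.7% of them were lower than PLOD3. Relative to that median PLOD3 was at -0.28. Among its 20 nearest tested genes, a window chosen after the values were seen, 19 had a negative log2 fold change and the median was -0.63. The fall of PLOD3 was therefore close to the median of its neighbourhood, and the part of this shift along chromosome 7 in the result was not tested. For PLOD2 the medians were far from its own value, with 0.03 on chromosome 3 and 0.12 among its 20 nearest genes. For LOXL1 the medians were 0.02 on chromosome 15 and -0.11 nearby, for LOX 0.06 and 0.14, and for P4HA1 0.03 and 0.04. LOXL2 and its neighbours had values of opposite sign. Its log2 fold change of 0.13 stood among 20 nearest genes with a median of -0.43, of which 19 were negative, on a chromosome with a median of 0.11.

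Genes that overlap these enzymes in the genome could share reads with them, because the sources used here do not say whether counting used the strand. LOXL1-AS1, an antisense RNA that shares up to 133 bases of exon with LOXL1, had 97.4, 92.2 and 87.0 CPM in shCTRL and 46.0, 41.3 and 44.6 CPM in shCCN3 libraries. It fell by 1.07 on the log2 scale (standard error 0.070, edgeR quasi-likelihood adjusted p = 5.67e-06), and its counts were 43.9% of those of LOXL1 in shCTRL and 28.8% in shCCN3 cells. LOXL1 and LOXL1-AS1 thus fell together, and the part of shared reads in the value of LOXL1 was not tested. ZNHIT1, next to PLOD3 on the other strand with 6 bases of shared exon, had a log2 fold change of -0.64 (edgeR quasi-likelihood adjusted p = 0.00573). SRFBP1, which overlaps LOX without sharing an exon, had 0.34 (edgeR adjusted p = 0.032). HTRA2, which shares 529 bases of exon with LOXL3, did not pass the test, with -0.08 (edgeR adjusted p = 0.573), nor did DOK1 with -0.09 (edgeR adjusted p = 0.48). Around P4HA2, SLC22A4 fell by 0.37 on the log2 scale (edgeR adjusted p = 0.0118), and PDLIM4 did not pass with -0.25. ENTPD4, which overlaps LOXL2, did not pass either with -0.25 (edgeR adjusted p = 0.0583). LOC100507156, MIR6830 and P4HA2-AS1 had too few counts to be tested.

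Several genes of these families are known targets of the hypoxia-inducible factors, whose binding sites hold the core ACGTG or GCGTG. They include PLOD2, LOX and P4HA1, which were higher in shCCN3 cells, and also PLOD1 and P4HA2, which were not called. The RefSeq promoter regions of GRCh38.p14, from 250 bases before to 50 after the start, were searched for both cores on both strands, and matches on opposite strands may overlap, as in CACGTG. The sequences below are shown for PLOD2, LOX and P4HA1, the genes with ACGTG, to place the cores relative to their starts. They are written 5′ to 3′ on the gene's own minus strand, and capitals mark ACGTG or GCGTG or, as CACGT, the core read from the other strand. The PLOD2 stretch is chr3:146161185-146161434, the 250 bases before the RefSeq start at 146161184, and it lies inside the longer span that GENCODE gives the gene. The LOX stretch is chr5:122078361-122078509, before the annotated exons. The P4HA1 stretch is chr10:73096935-73096964, around its match.
PLOD2: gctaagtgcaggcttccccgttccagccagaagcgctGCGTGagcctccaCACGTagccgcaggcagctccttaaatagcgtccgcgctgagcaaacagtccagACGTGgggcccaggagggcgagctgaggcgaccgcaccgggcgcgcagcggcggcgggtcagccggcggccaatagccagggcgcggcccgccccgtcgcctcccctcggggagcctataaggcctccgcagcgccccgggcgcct
LOX: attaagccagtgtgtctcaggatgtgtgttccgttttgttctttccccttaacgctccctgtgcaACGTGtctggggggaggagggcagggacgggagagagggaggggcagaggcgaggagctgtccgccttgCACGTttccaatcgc
P4HA1: tgtgatcgagctCACGTagcgagggctgca

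PLOD2 had its cores at positions -213, -200 and -146 from the start, LOX at -185, -116, -98 and -42, and P4HA1 at -86. In the GENCODE annotation the exons begin at -101 for LOX and -108 for P4HA1, so that the LOX cores at -98 and -42 and the P4HA1 core lie in annotated exons. For LOX, 2 further regions at other starts each held both ACGTG and GCGTG. The 9 genes looked up, all but LOXL2, had 12 regions. ACGTG was present for 3 of these genes and either core for 5, where any region of a gene could count. PLOD1 had GCGTG at -68 and -25, and 1 of the regions of LOXL3 had it at -246. No core was in the windows of PLOD3, LOXL1, P4HA2 and LOXL4, which says only that these letters are not there. Over all 35116 promoter regions, 21.4% held ACGTG and 48.4% held either core, and over the 18061 regions of tested genes these shares were 25.0% and 59.1%. These shares count regions and not genes, so they cannot be set directly against the counts of genes above. The presence of a core is a description of the sequence and does not show that a factor was bound.

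A set of 11 lists of genes around the same pathway, chosen for their known roles, gave the setting of these enzymes. Of 94 genes in the lists 84 were tested, and 34 of them were higher and 16 lower in shCCN3 cells, beside 16.2% and 17.3% of all genes tested. Their median log2 fold change was 0.14. The calls below come from edgeR's quasi-likelihood test over all genes.

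The partners of the hydroxylases changed in both directions. Of 8 other prolyl hydroxylation genes 1 rose and 2 fell, with a median of -0.08. P3H2, a prolyl 3-hydroxylase that acts on basement membrane collagen, rose by 0.66 on the log2 scale, from 332 ± 3.77 to 523 ± 9.53 CPM (SD, n = 3 each). P3H3 and P3H1, the other prolyl 3-hydroxylases, fell by 0.35 and 0.29 on the log2 scale. P4HB, the partner chain of P4HA1 and P4HA2, was named after its values were seen and had 1270 CPM in both groups (edgeR adjusted p = 0.977). Of 5 genes for hydroxylysine glycosylation and lysyl hydroxylase partners, COLGALT1, the galactosyltransferase, was higher by 0.16 on the log2 scale, and FKBP14, a prolyl isomerase of the endoplasmic reticulum, fell by 0.65. The call of COLGALT1 was lost in 5 of the 6 fits with a library left out (edgeR adjusted p 0.067 to 0.161). Of 8 folding and export genes 2 rose and 2 fell, with a median of -0.01. CREB3L1, a transcription factor for secretory cargo, rose by 0.60 and MIA2, of the collagen exit site, by 0.27 on the log2 scale. SEC24D, of the COPII coat, fell by 0.38 and KLHL12, a ubiquitin ligase adaptor, by 0.32. MIA2 lost its call in 4 and SEC24D in 3 of the 6 fits with a library left out.

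Among the genes that trim procollagen, 1 rose and 2 fell, with a median of -0.09. ADAMTS14, a procollagen N-proteinase, had 96.8, 103 and 103 CPM in shCTRL and 13.9, 14.0 and 16.0 CPM in shCCN3 libraries, and fell by 2.79 on the log2 scale (edgeR adjusted p = 5.3e-08). PCOLCE, the enhancer of the C-proteinase, fell from 368 ± 27.4 to 86.5 ± 8.90 CPM (SD, n = 3 each), by 2.09 on the log2 scale. It lies on chromosome 7, 0.604 Mb from PLOD3, and only 2.44% of the other tested genes of that chromosome were lower. ADAMTS2, a related N-proteinase, rose by 0.94 on the log2 scale. These were 3 of 6 tested genes of 8 in the list, which also holds BMP1, the protease that cuts procollagen and pro-LOX. BMP1, named after its values were seen, had a log2 fold change of 0.04 (edgeR adjusted p = 0.673).

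The called substrates of the enzymes were all higher in shCCN3 cells. Of 10 tested fibrillar collagen genes 6 rose and 0 fell, with a median log2 fold change of 1.10. ELN, the elastin gene, had 0 counts in all libraries. COL3A1 rose by 4.66 on the log2 scale, from 0.474 ± 0.0352 to 12 ± 0.961 CPM (SD, n = 3 each). COL27A1 rose by 1.96 on the log2 scale, from 2.51 to 9.79 CPM. COL11A1 had 0 counts in all shCTRL libraries and 4.64, 3.38 and 3.52 CPM in the shCCN3 libraries, at least 84.8-fold higher against a floor of 3 counts per library. COL1A1, named after its values were seen, rose from 36.1 to 97.3 CPM, a log2 fold change of 1.43. COL5A1, also named after its values were seen, had the highest CPM of the list, with 521 in shCTRL and 604 in shCCN3 cells. Its groups overlapped and it was not called, with a log2 fold change of 0.21 (edgeR adjusted p = 0.094). In the basement membrane list 2 of 4 tested genes rose and 0 fell. They were COL4A1, by 1.01 on the log2 scale, and COL4A2, by 0.68. Of 7 tested matrix partners of lysyl oxidases 4 rose and 0 fell, with a median of 0.61. THBS1, a matricellular protein, rose by 0.79, FBLN5, which brings LOXL1 to elastic fibres, by 0.77, and LUM, a small proteoglycan of collagen fibrils, by 0.61 on the log2 scale. FBLN5 was near 1 CPM and lost its call in 3 of the 6 fits with a library left out (edgeR adjusted p 0.0577 to 0.0697).

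The lists for cofactor supply held called genes of both signs. Of 7 copper genes 2 rose and 1 fell. SLC31A1, the copper importer, rose by 0.34 and ATP7B, a copper ATPase, by 0.36 on the log2 scale, while STEAP3, a metalloreductase, fell by 0.81. ATP7B lost its call in each of the 6 fits with a library left out (edgeR adjusted p 0.0573 to 0.122). ATP7A, the ATPase that loads copper onto secreted enzymes such as LOX, was named after its values were seen and had -0.04 (edgeR adjusted p = 0.869). Of 5 tested ascorbate and iron genes 1 rose and 2 fell. SLC2A1, a glucose transporter that also carries oxidised ascorbate, rose by 0.28 on the log2 scale. SLC23A2, the ascorbate transporter, fell by 0.55, and SLC39A13, a metal transporter of the secretory pathway, by 0.30. SLC2A1 was not called without shCCN3 replicate 1 (edgeR adjusted p = 0.0502).

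The last 2 lists hold components and response genes of signals known to induce several of the 10 enzymes. Their counts and medians therefore mix both kinds of gene. Of 14 hypoxia genes 8 rose and 4 fell, with a median of 0.21. KDM3A, a histone demethylase, rose by 1.35, ANKRD37 by 0.62 and BNIP3, a mitophagy receptor, by 0.53 on the log2 scale. CA9, a carbonic anhydrase, fell by 0.67, NDRG1 by 0.40 and ADM, the adrenomedullin gene, by 0.36. EGLN3, an oxygen-sensing prolyl hydroxylase, had the largest fall of the list but a mean under 1 CPM, and was named after its values were seen. It had 1.95, 2.09 and 1.36 CPM in shCTRL and 0.0725, 0 and 0.0782 CPM in shCCN3 libraries, a log2 fold change of -5.04 (edgeR adjusted p = 5.99e-05). The list thus did not move in 1 direction, and ANKRD37 lost its call in 3 of the 6 fits with a library left out. Of 10 genes of the TGF-beta list 6 rose and 2 fell, with a median of 0.26. CCN2, a relative of CCN3, rose from 50.8 ± 2.59 to 465 ± 23.6 CPM (SD, n = 3 each), by 3.19 on the log2 scale. TGFB2, a ligand, rose by 1.12 and SKIL, a feedback inhibitor, by 0.86, while TGFBR2, a receptor, fell by 0.84. Neither list holds any of the 10 enzymes.

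**Figure D4:**
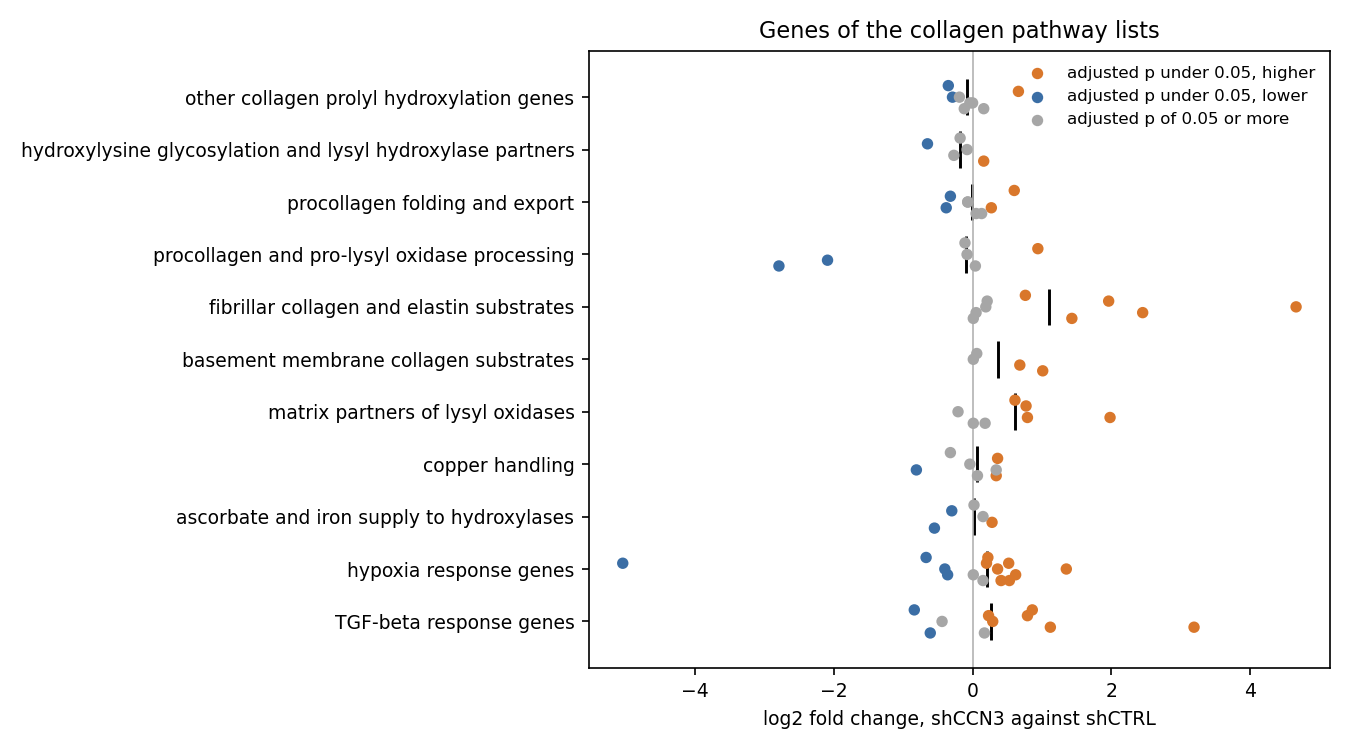
Log2 fold change (horizontal axis) of the tested genes of 11 pathway lists (rows), coloured by the call of edgeR's quasi-likelihood test, with the median of each list (black tick). The point of COL11A1 is left out because its shCTRL counts were 0, but the median of its list includes it. The fibrillar collagen row has its median at 1.10 and no gene called lower, while the hydroxylation, folding and processing rows have medians between -0.18 and -0.01.

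The genes whose profile was most like those of PLOD2, PLOD3 and LOXL1 were sought among 13624 genes, by the root-mean-square difference of centred log2 CPM over the 6 libraries. Those nearest to PLOD2 were CAP2 (0.032), FRMD6 (0.035) and ETS1 (0.037). Like PLOD2, each of them had its lowest shCCN3 level in replicate 2. Nearest to PLOD3 were TSC22D4 (0.028), SFXN5 (0.031) and WDR91 (0.033). TSC22D4 and WDR91 lie on chromosome 7 as PLOD3 does, the first of them 0.739 Mb away, and SFXN5 lies on chromosome 2. Nearest to LOXL1 were SMTN (0.020), RBM15 (0.020) and CXXC5 (0.021). With 6 libraries in 2 groups, such likeness mostly restates the difference between the groups.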

How the data were processed

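The authors extracted total RNA from the shCTRL and shCCN3 cells, made stranded mRNA libraries and deposited raw counts of reads for 46427 genes, without normalization. The submitters' processing notes name bcl2fastq 2.20.0, Trimmomatic, HISAT2 2.1.0, StringTie 2.1.3d, DESeq2 and GRCh38. The annotation release and the use of strand in counting are not given in the sources used here. Libraries were grouped by the sample labels.

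CPM and log2 fold changes were computed from the counts with edgeR 4.0.16 in R 4.3.3, using TMM factors, edgeR's filter by group (17419 genes left) and its quasi-likelihood test, with no block. P-values were adjusted by Benjamini-Hochberg and called at 0.05. The scripts were first tested on simulated data. Alternatives were DESeq2 size factors, upper-quartile factors, no filter, at least 10 counts in every library, DESeq2 1.42.0, limma-voom (limma 3.58.1), a replicate block and each library left out in turn. Levels and shares computed with the length of the longest coding transcript were added after seeing the data. Gene IDs were matched to GENCODE release 29 (26551 matched) and to RefSeq (44698 matched). Libraries held 56159110 to 68393177 counts, and floors of 3 counts cover counting error only.

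The 10 genes and the pathway lists were chosen with earlier results of these data known. Besides the 10 genes, CCN3 and genes that overlap 1 of the 10, the text names per list up to 3 called genes a direction, those that changed most among genes with a mean of at least 1 CPM, and the 3 genes with the profile most like each of the 3 most changed enzymes. Exceptions are stated where they occur, and some values are not reported here. No protein sequences were used here.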

Additional observations from a re-analysis of the deposited data

How the results depend on the processing

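PLOD2, PLOD3 and LOXL1 kept their direction and their call in all 13 alternatives, with log2 fold changes of 0.84 to 1.00, -0.75 to -0.67 and -0.49 to -0.41. LOX was called in the 7 alternatives that kept all libraries. With 1 library left out, the number of the 10 genes called was 3 to 6, and the number called higher was 1 to 4. Over all genes tested, 4181 to 7229 were called in those fits. PLOD1, never called, changed sign without shCTRL replicate 1 (-0.03) and without shCCN3 replicate 2 (-0.006), in a range of -0.03 to 0.04 over the fits with a library left out. P4HA1 was not called without a filter on low counts (adjusted p = 0.0698, edgeR) or with limma-voom (adjusted p = 0.0507), and the cause was not tested.

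No sign was seen that the replicate numbers pair the libraries. The correlations of the same-numbered deviations were 0.0891, -0.0256 and -0.0657, and not every library correlated best with its own number. With 3 libraries a group, these correlations cannot exclude a pairing. With the replicate block in edgeR, 4 of the 10 genes were called, P4HA1 losing its call (adjusted p = 0.11), and 4887 genes were called in all.

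For the 37 pathway genes that the naming rule picked, 447 of 480 values under the alternatives kept their call, 33 lost it, for 7 genes, and 0 changed sign. Depth limits LOXL4 alone of the 10 genes. With 3 libraries a group, differences near the size of that of P4HA2 could not be settled.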
